A study of Mus musculus with 24 samples.

Results

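Transcripts of 10 genes of the fibroblast growth factor (FGF) pathway were followed in the supporting cells of the mouse fetal gonad: the ligand gene Fgf9, the receptor genes Fgfr1, Fgfr2, Fgfr3 and Fgfr4, and the feedback and target genes Spry2, Spry4, Dusp6, Etv4 and Etv5. They were taken by symbol from the 32040 genes of the deposited tables, and all 10 were among the 16190 genes with enough counts to be tested. The RNA-seq series held 24 bulk libraries of sorted cells with stages named by embryonic day (E11.5, E12.5, E13.5 or E15.5) and 3 libraries for each sex and stage. XX libraries came from pre-granulosa cells, the precursors of ovarian granulosa cells, of the Tg(Enh8-mCherry) mouse line. XY libraries came from Sertoli cells, the supporting cells of the testis, of the SOX9-IRES-GFP mouse line. The labels name no treatment, and about 40000 cells were sorted per library, per the labels. Sex, mouse line and reporter changed together and cannot be told apart in any XX and XY comparison, and the XY gate selected cells by a reporter of Sox9. The labels do not say whether libraries came from separate embryos, pools or litters, so p-values measure only the spread between these libraries. As in any bulk sample, fewer cells that express a gene and less RNA of it per cell cannot be told apart.

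FGFs are secreted proteins that bind receptor tyrosine kinases at the cell surface and, through adaptor proteins, switch on the RAS and ERK kinase cascade. ERK signalling in turn induces genes that limit it, among them the Sprouty genes (Spry2, Spry4) and the ERK phosphatase gene Dusp6, and it induces the ETS transcription factor genes Etv4 and Etv5, so these transcripts are widely read as a record of pathway activity. In the fetal gonad Fgf9 is known as a testis-promoting signal that acts with Sox9 in XY gonads, with Fgfr2 as its main receptor there.

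The sorted cells were checked against markers in TPM, the length-scaled unit of the deposited tables. The summed level of 6 Sertoli markers was 6220 to 8080 TPM in XY libraries from E12.5 on and 24.8 to 41.1 TPM in XX libraries of those stages. The summed level of 7 pre-granulosa markers was 267 to 1180 TPM in the XX libraries of all stages and 1.76 to 5.62 TPM in XY libraries from E12.5 on. At E11.5 the labels were less sharply separated, since XY libraries held 671 to 1140 TPM of the Sertoli list and 42.6 to 70.7 TPM of the pre-granulosa list. Blood and immune RNA differed between the sexes: at E11.5 the 6 erythroid markers summed to 7400 to 62400 TPM in XX and 22.8 to 59.2 TPM in XY, and the 7 immune markers to 135 to 351 TPM in XX and 0.15 to 1.75 TPM in XY, where Cd53 was at 0 in all 3 libraries. Both sums stayed higher in XX later. From E12.5 on the immune sum was 30.3 to 57.8 TPM in XX and 0.06 to 0.86 TPM in XY. The erythroid sum was 1450 to 3400 TPM in XX and 24.5 to 54 TPM in XY at E12.5. At E15.5 it was 386 to 520 TPM in XX and 159 to 234 TPM in XY. The 5 steroidogenic markers summed at E15.5 to 240 to 263 TPM in XX and 52.1 to 91.9 TPM in XY. The 6 interstitial markers summed to 201 to 317 TPM in XY at E11.5 and 8.85 to 9.53 TPM in XY at E12.5. From E12.5 on their sum was 63.6 to 153 TPM in XX libraries and 4.7 to 26.1 TPM in XY libraries. The 5 surface epithelium markers summed to 41.3 to 106 TPM in XX and 10.6 to 12.3 TPM in XY at E12.5, where Msln was at 0 in all 3 XY libraries, and to 293 to 344 TPM in XX and 11.4 to 13.7 TPM in XY at E15.5. At E15.5 the 6 germ cell markers summed to 109 to 175 TPM in XX and 46.8 to 87.2 TPM in XY.

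A pair of E11.5 libraries stood apart from their group. XX E11.5 replicate 1 held 226 CPM (counts relative to the scaled library size) of Sox9, against 78.6 and 74.5 CPM in replicates 2 and 3, and 114 TPM of the Sertoli list, against 42.9 and 41.8 TPM. XY E11.5 replicate 3 held the least Sox9 of its group (1210 CPM, against 1780 and 2130 CPM), the most pre-granulosa RNA (70.7 TPM, against 54.1 and 42.6 TPM) and the most interstitial RNA (317 TPM, against 201 and 225 TPM). Xist, which is transcribed from the inactive X chromosome, was at 40.8 CPM in XY E11.5 replicate 3, 6.32 CPM in replicate 2 and 0.272 CPM in replicate 1. Many of the E11.5 results are also given without XX replicate 1 or XY replicate 3. XX E11.5 replicate 3 also differed from its group. It held the most erythroid RNA (62400 TPM, against 26100 and 7400 TPM) and the most immune RNA (351 TPM, against 227 and 135 TPM). Its interstitial RNA was highest too (277 TPM, against 167 and 93.9 TPM), and its pre-granulosa RNA lowest (267 TPM, against 346 and 690 TPM). For XX E13.5 replicate 1, the title gives E13.5 and another field gives E12.5, and it was kept at E13.5.

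The 250 bases before the transcription start are shown for Fgf9, Fgfr2, Spry2 and Dusp6, to set the ligand and receptor beside feedback genes. RefSeq promoters (GRCm38.p6) of 7 of the 10 members were searched. Those of Fgfr1, Spry4 and Etv4 were left out of the search, so whether they hold these motifs was not tested. Capitals mark the words found in a search of both strands for 3 motifs: the octamer of the repressor CIC (TGAATGAA, TGAATGGA, TCAATGAA or TCAATGGA), a core site of ETS factors (CCGGAAG) and a core site of SOX factors (AACAAT). Each sequence runs 5′ to 3′ on the strand of its gene.
Fgf9, chr14:58072436-58072685, plus strand: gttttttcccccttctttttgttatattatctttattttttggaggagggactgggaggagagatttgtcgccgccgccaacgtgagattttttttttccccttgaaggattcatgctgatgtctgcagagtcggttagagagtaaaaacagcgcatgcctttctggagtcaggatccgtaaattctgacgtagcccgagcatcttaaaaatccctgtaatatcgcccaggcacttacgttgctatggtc
Fgfr2, chr7:130266809-130267058, minus strand: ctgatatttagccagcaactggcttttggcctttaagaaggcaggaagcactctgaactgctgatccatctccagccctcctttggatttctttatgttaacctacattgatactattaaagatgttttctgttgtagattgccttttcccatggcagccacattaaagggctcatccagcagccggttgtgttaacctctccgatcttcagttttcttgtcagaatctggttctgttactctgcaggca
Spry2, chr14:105896820-105897069, minus strand: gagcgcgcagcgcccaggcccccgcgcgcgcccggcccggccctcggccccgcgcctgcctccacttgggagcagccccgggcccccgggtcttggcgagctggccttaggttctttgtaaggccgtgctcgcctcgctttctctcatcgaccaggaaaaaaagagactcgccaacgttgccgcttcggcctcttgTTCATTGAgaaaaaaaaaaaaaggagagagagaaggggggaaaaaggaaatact
Dusp6, chr10:99262981-99263230, plus strand: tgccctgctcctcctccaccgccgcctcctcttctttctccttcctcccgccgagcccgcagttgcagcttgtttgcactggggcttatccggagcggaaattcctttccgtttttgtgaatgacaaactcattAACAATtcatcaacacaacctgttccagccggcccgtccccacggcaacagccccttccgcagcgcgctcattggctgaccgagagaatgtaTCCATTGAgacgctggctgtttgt
A CIC octamer, the word through which CIC is known to repress ETV and other ERK target genes, lay on the opposite strand 24 to 17 bases before the Dusp6 start (TCAATGGA, shown as its complement TCCATTGA) and 54 to 47 bases before the Spry2 start (TCAATGAA, shown as TTCATTGA). The Dusp6 stretch also held the SOX word, 116 to 111 bases before the start. None of the 3 motifs was found in these windows of Fgf9 and Fgfr2, nor in those of Fgfr3, Fgfr4 and Etv5. Of 32851 RefSeq promoters of the same length, 3.19% held the CIC octamer, 6.91% the ETS word and 9.42% the SOX word. The Spry2 and Dusp6 stretches end directly before the first base of the GENCODE gene, whereas those of Fgf9 and Fgfr2 lie inside the longer gene spans of that annotation.

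Between the sexes, the ligand gene Fgf9 and the feedback and target genes Spry4, Dusp6, Etv4 and Etv5 were higher in Sertoli cells at all 4 stages, and the receptor gene Fgfr2 was higher in pre-granulosa cells at all 4. Fgfr1 and Fgfr3 were higher in XX from E12.5 on, but the Fgfr3 calls at E13.5 and E15.5 were lost in tests on TPM. Spry2 changed its direction between stages, and Fgfr4 differed at none. At E11.5, 7 of the 10 genes differed at an adjusted p under 0.05 (edgeR quasi-likelihood test, Benjamini-Hochberg adjustment over all genes tested), against 42% of all genes tested. Of these, 5 were higher in XY (against 20.6% of all genes) and 2 higher in XX (against 21.4%), and with both libraries that stood apart left out 6 were higher in XY and 1 in XX, since Spry2 was lost (0.76, adjusted p 0.0527) and Fgfr4 passed (-1.68, adjusted p 0.015, both in edgeR). At E12.5, 9 of 10 differed (against 62.1% of all genes), 3 higher in XX (against 30.5%) and 6 in XY (against 31.5%). At E13.5, 8 differed (against 66.1%), 3 higher in XX (against 32.8%) and 5 in XY (against 33.3%). At E15.5, 9 differed (against 69.4%), 4 higher in XX (against 34.9%) and 5 in XY (against 34.4%). The share of all genes called was itself high, so the counts from E12.5 on are near or moderately above the background. The median log2 XX minus XY difference of the 10 genes was -1.087, -2.383, -1.095 and -0.91 from E11.5 to E15.5, beside 0.018, -0.005, 0.005 and 0.046 for all genes tested.

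**Figure D1:**
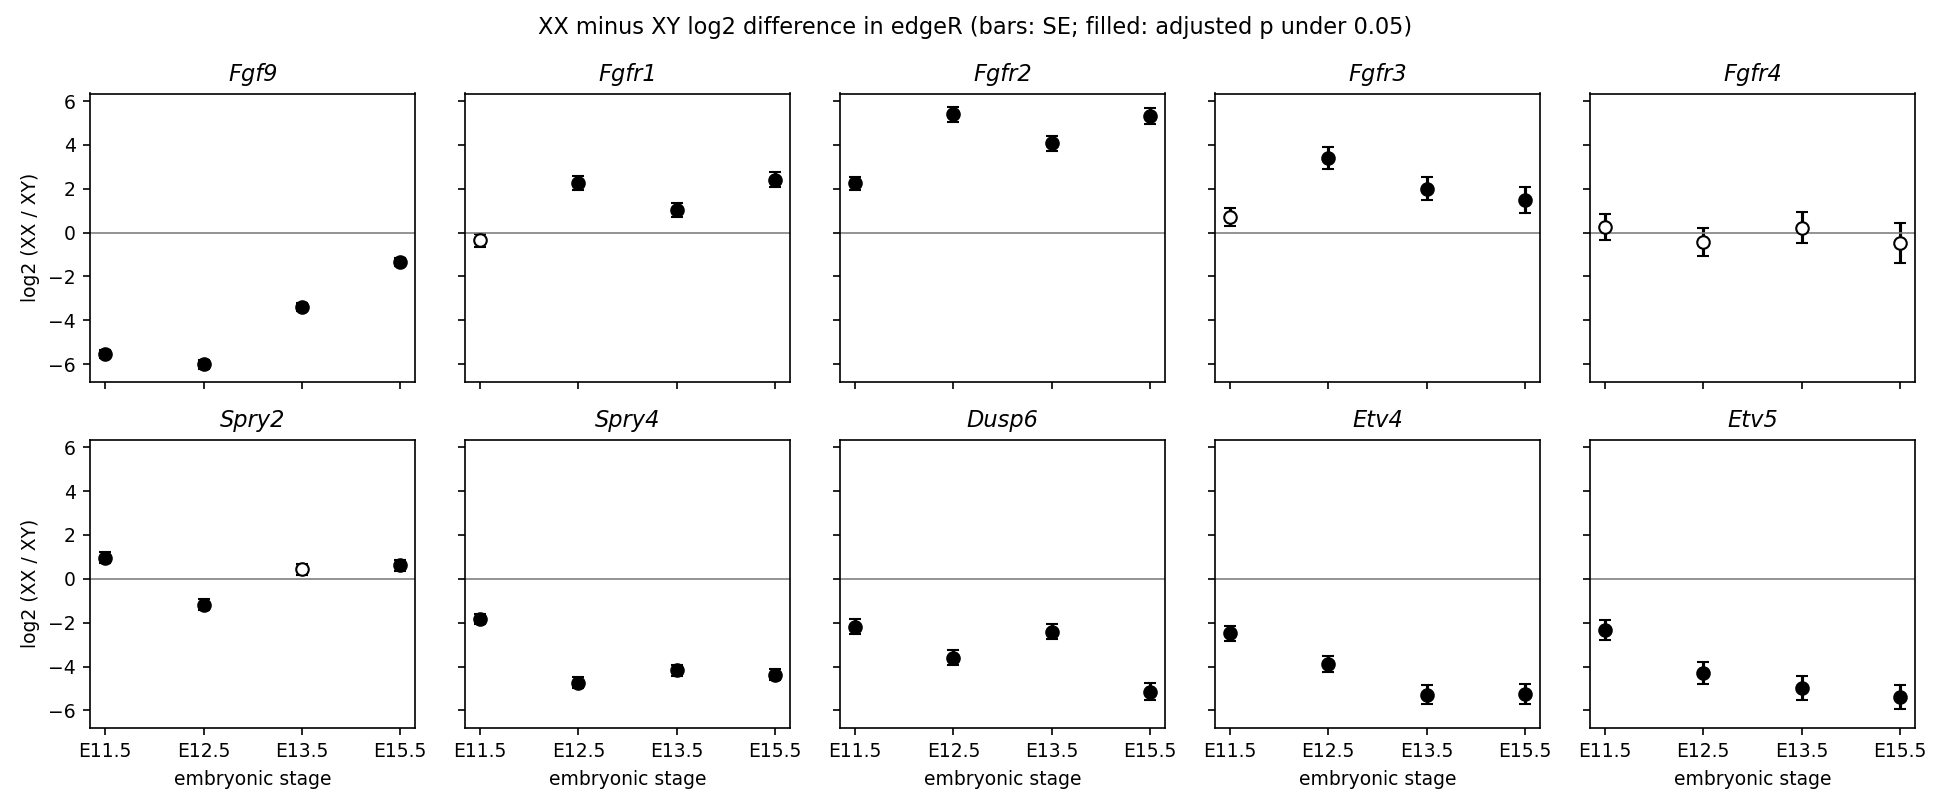
Log2 XX minus XY difference of each gene by embryonic stage (points, edgeR estimate; bars, standard error; filled, adjusted p under 0.05). Fgf9 moves from -5.55 at E11.5 to -1.34 at E15.5, while Etv4 and Etv5 lie at or below -4.98 at E13.5 and E15.5 and Fgfr2 lies between 2.26 and 5.39.

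Fgf9, the secreted ligand, was abundant in XY cells at E11.5 and fell at each step, while it stayed low in XX cells. In XY libraries Fgf9 was at 98.1, 99.0 and 70.7 CPM at E11.5, 53.8, 65.5 and 61.1 CPM at E12.5, then 21.2, 20.4 and 21.0 CPM at E13.5, and 6.59, 6.17 and 7.09 CPM at E15.5 (replicates 1 to 3 in turn, here and below). In XX libraries it was at 1.92, 2.2 and 1.49 CPM at E11.5, 0.971, 1.18 and 0.659 CPM at E12.5, then 1.48, 1.95 and 2.49 CPM at E13.5, and 2.86, 2.33 and 2.67 CPM at E15.5. The lowest XY library lay above the highest XX library at each stage, and the XY groups of successive stages did not overlap.

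The log2 XX minus XY difference of Fgf9 was -5.55 (SE 0.19, adjusted p 1.57e-14 in edgeR) at E11.5, with group means of 1.87 ± 0.358 CPM in XX and 89.3 ± 16.1 CPM in XY (SD, n = 3). It was -6 (SE 0.2) at E12.5, then -3.4 (SE 0.19) at E13.5 and -1.34 (SE 0.19, adjusted p 1.67e-06) at E15.5. Within XY cells Fgf9 fell by 3.75 on the log2 scale from E11.5 to E15.5 (SE 0.17, adjusted p 9.16e-14 in edgeR). The steps were -0.57, -1.53 and -1.66 on the log2 scale, each past the threshold, over the intervals from E11.5 to E12.5, E12.5 to E13.5 and E13.5 to E15.5. Within XX cells Fgf9 fell from E11.5 to E12.5 (log2 -1.01, adjusted p 0.00185) and rose from E12.5 to E13.5 (1.07, adjusted p 0.00127), which left E15.5 at 0.46 against E11.5 (adjusted p 0.0596, all in edgeR). XY E11.5 replicate 3 was the lowest of its group in Fgf9. Without it the E11.5 difference was -5.68 and the XY step from E11.5 to E12.5 was -0.79. At E15.5, the stage with the smallest difference, the mean was 2.62 ± 0.27 CPM in XX and 6.62 ± 0.457 CPM in XY, a ratio of 2.52.

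**Figure D2:**
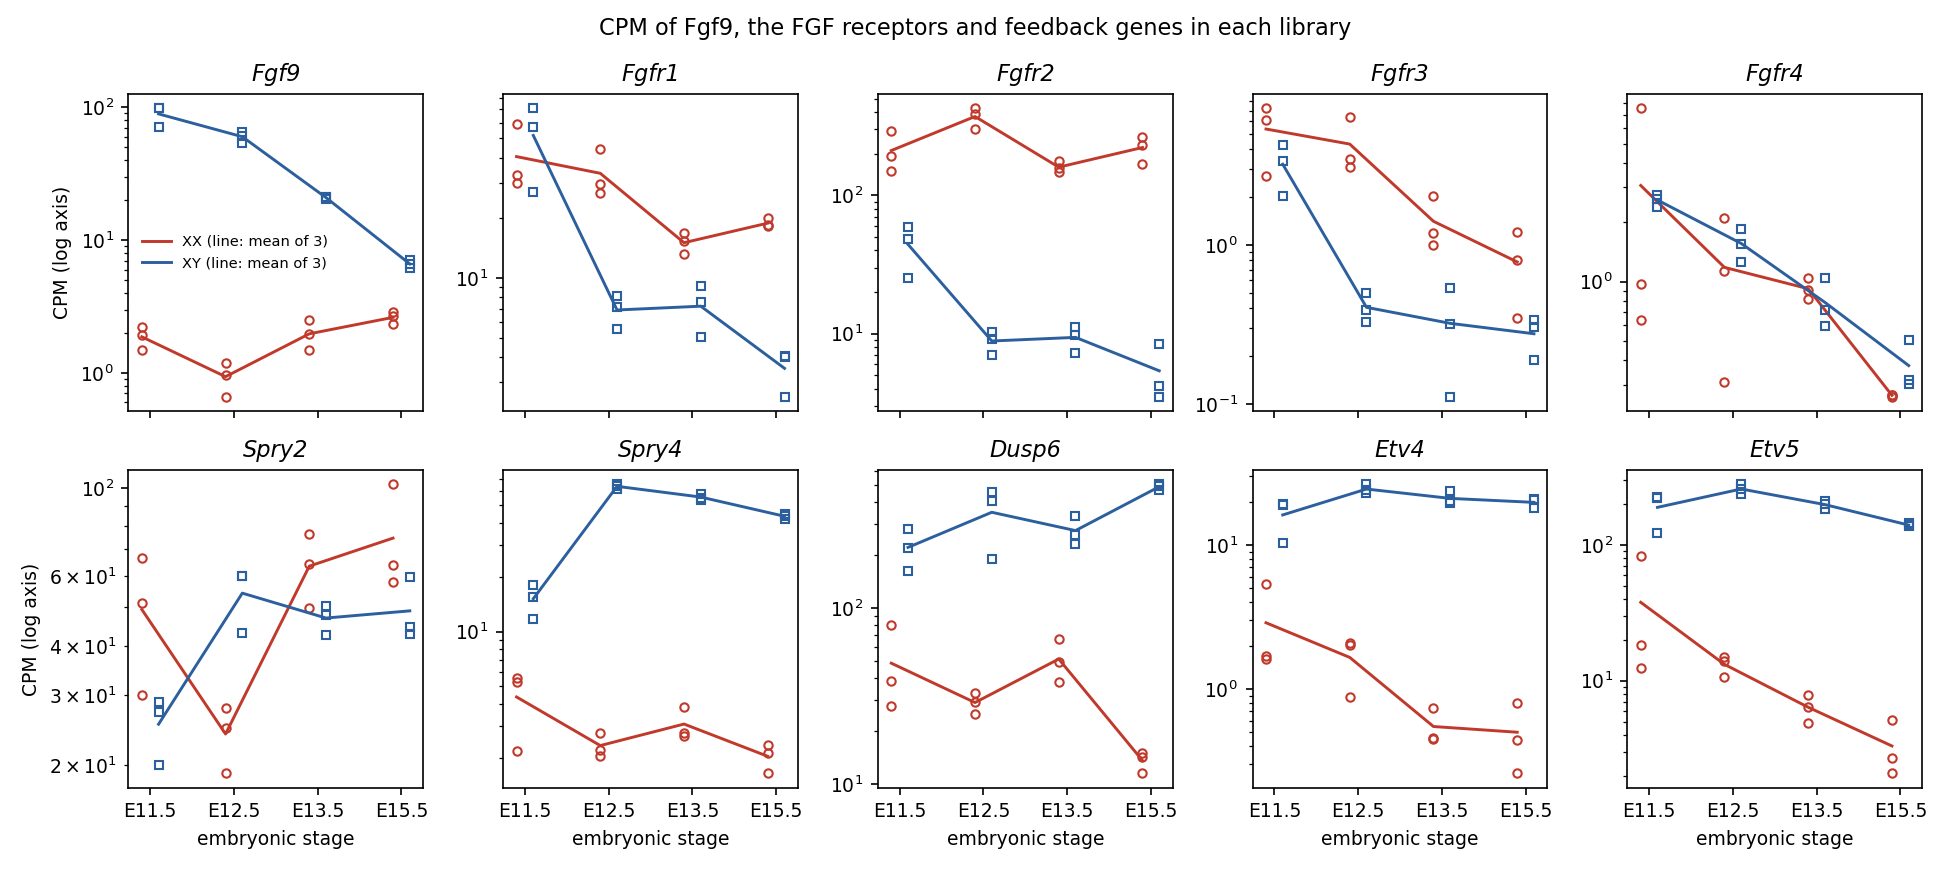
CPM of the 10 genes in every library on log axes, by embryonic stage (red circles, XX; blue squares, XY; lines, means of 3 libraries). Fgf9, Spry4, Dusp6, Etv4 and Etv5 are higher in all XY than in all XX libraries of each stage, and Fgfr2 is higher in all XX libraries.

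Among the receptor genes, Fgfr2 carried the largest sex difference and the largest share of the receptor RNA. In XY cells at E11.5 its share of the summed receptor TPM was 47.4% to 54.1%, close to the 38.2% to 46.6% of Fgfr1. Fgfr2 was at 192, 291 and 151 CPM in XX libraries at E11.5, 300, 388 and 429 CPM at E12.5, then 177, 157 and 147 CPM at E13.5, and 170, 266 and 230 CPM at E15.5. In XY libraries it was at 25.3, 48.7 and 58.7 CPM at E11.5, 7.05, 9.19 and 10.3 CPM at E12.5, then 7.24, 9.76 and 11.2 CPM at E13.5, and 8.46, 4.21 and 3.48 CPM at E15.5. XX libraries were above XY libraries at every stage with no overlap, and the XY level dropped between E11.5 and E12.5.

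The log2 XX minus XY difference of Fgfr2 was 2.26 (SE 0.3, adjusted p 6.6e-06 in edgeR) at E11.5, 5.39 (SE 0.36, adjusted p 7.27e-11) at E12.5, then 4.08 (SE 0.34) at E13.5 and, last, 5.33 (SE 0.36) at E15.5. In XY cells Fgfr2 fell 5-fold from E11.5 to E12.5 (log2 -2.32, adjusted p 4.84e-06 in edgeR) and 8.02-fold by E15.5. In XX cells it was at 211 ± 71.9 CPM at E11.5 and 222 ± 48.6 CPM at E15.5 (log2 change 0.07, SE 0.29, adjusted p 0.846 in edgeR). The XY fall at E12.5 went with the drop of the interstitial marker sum in XY, from 201 to 317 TPM down to 8.85 to 9.53 TPM, and of the pre-granulosa sum, from 42.6 to 70.7 TPM down to 5.29 to 5.62 TPM. XY E11.5 replicate 3 was also highest in Fgfr1 and Fgfr2, and without it the XY step of Fgfr2 was -2.14. The steroidogenic sum in XY dropped over that step as well, from 235 to 297 TPM down to 45.7 to 66.8 TPM. From E12.5 on, the interstitial, surface epithelium, erythroid and immune sums were, like Fgfr1 and Fgfr2, higher in every XX library than in any XY library. The part of these marker differences in the receptor results was not tested.

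Fgfr1, a receptor used broadly in mesenchyme, did not differ between the sexes at E11.5 beyond its spread, with 32.6, 29.9 and 59.2 CPM in XX and 27.0, 57.0 and 71.0 CPM in XY (log2 -0.35, adjusted p 0.357 in edgeR). Without single E11.5 libraries the difference ran from -0.74 (XX replicate 3 left out, adjusted p 0.0577 in edgeR) to -0.04 (XY replicate 3 left out), none past the threshold. From E12.5 on the groups no longer overlapped: XX libraries held 26.5, 44.1 and 29.5 CPM at E12.5 and XY libraries 5.51, 7.12 and 8.09 CPM. At E15.5 Fgfr1 was at 18.1, 20.0 and 18.4 CPM in XX and 4.04, 3.99 and 2.53 CPM in XY. The difference was 2.27 (adjusted p 4.05e-06) at E12.5, 1.04 (adjusted p 0.00734) at E13.5 and 2.41 (adjusted p 3.19e-06) at E15.5, all in edgeR, and the E13.5 call was lost on log2(TPM + 1) over all genes (0.68). In XY cells Fgfr1 fell 7.48-fold from E11.5 to E12.5 and 14.5-fold by E15.5. In XX cells it fell 2.15-fold from E11.5 to E15.5 (adjusted p 0.00442 in edgeR).

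Fgfr3, best known from cartilage, was a minor receptor gene in both sexes. It was at 7.27, 2.71 and 6.09 CPM in XX and 2.04, 4.26 and 3.37 CPM in XY at E11.5, groups that overlapped (log2 0.73, adjusted p 0.163 in edgeR). At E12.5 it was at 3.11, 6.36 and 3.47 CPM in XX and 0.327, 0.388 and 0.503 CPM in XY, a log2 difference of 3.39. By E15.5 Fgfr3 rested on 4 to 18.1 counts per XX library and 3 to 7 counts per XY library. Its difference there, 1.5 (adjusted p 0.0293 in edgeR), was lost without any 1 of XX E15.5 replicates 2 and 3 and XY E15.5 replicates 1 and 3 (1.19 to 1.55, adjusted p 0.0602 to 0.113). It was also lost in each test on TPM (0.07 to 0.23), where the groups overlapped. At E13.5 the difference was 2.01 (adjusted p 0.00222 in edgeR), and that call was lost in each test on TPM too (0.27 to 0.82). Fgfr3 fell in both sexes from E11.5 to E15.5, 6.62-fold in XX and 11.3-fold in XY.

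Fgfr4, the other minor receptor gene, showed no call between the sexes at any stage in the test over all libraries. In XX E11.5 it was at 7.59, 0.642 and 0.972 CPM and in XY E11.5 at 2.39, 2.76 and 2.61 CPM, so that XX replicate 1 alone stood above the XY libraries and replicates 2 and 3 stood below them. The E11.5 difference, 0.25 on the log2 scale (SE 0.6, adjusted p 0.768 in edgeR), turned to -1.71 without that library, which passed the threshold (adjusted p 0.00751). At E12.5 it was at 1.13, 2.09 and 0.308 CPM in XX and 1.26, 1.85 and 1.55 CPM in XY, groups that overlapped. At E15.5 it was at 0.26, 0.267 and 0.267 CPM in XX and 0.304, 0.505 and 0.316 CPM in XY, which is 3 to 9 counts per library. The fall from E11.5 to E15.5 was 11.4-fold in XX (log2 -3.51, adjusted p 0.000634 in edgeR), or -1.63 on the log2 scale without XX E11.5 replicate 1, and 6.85-fold in XY (-2.78, adjusted p 0.00234).

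Levels of the 4 receptors were compared with each other in TPM, which allows for transcript length. Fgfr2 was above Fgfr1 in all 24 libraries. It made up 75.8% to 94.6% of the summed receptor TPM over the 12 XX libraries and 47.4% to 69.9% over the 12 XY libraries, ranges that do not overlap. Fgfr1 made up 4.62% to 21.3% in XX and 21.6% to 46.6% in XY, so the mix in XY cells leaned further to Fgfr1. The summed receptor level was 132 ± 18.9 TPM in XX and 49.9 ± 18.7 TPM in XY at E11.5, and 211 ± 34.3 TPM in XX and 9.69 ± 1.73 TPM in XY at E12.5 (SD, n = 3). At E15.5 it was 117 ± 28.1 TPM in XX and 5.23 ± 1.35 TPM in XY. The XX and XY libraries of a stage did not overlap in this sum at any stage. At E11.5, where Fgf9 was highest in XY cells, those cells thus held less receptor RNA than XX cells.

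**Figure D3:**
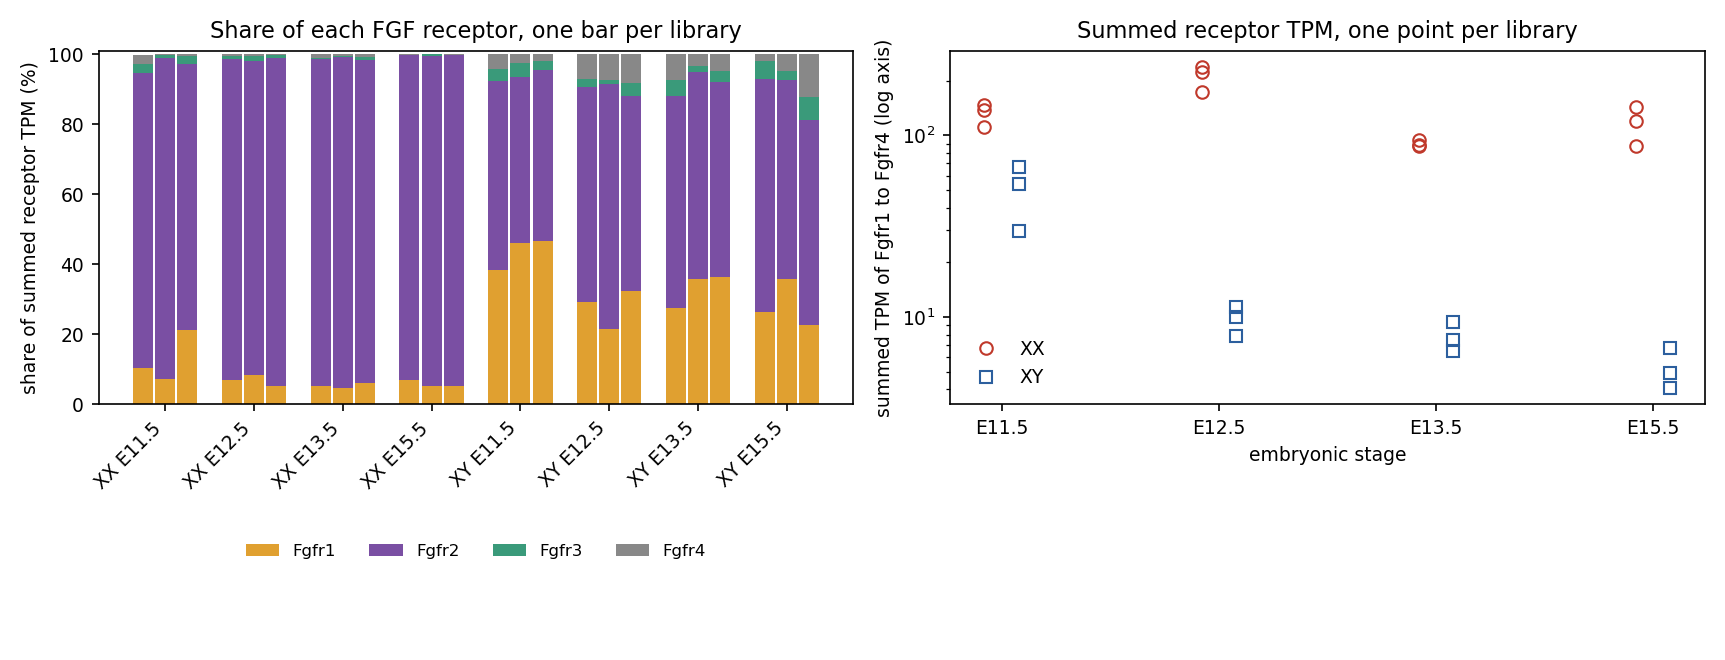
Left, share of Fgfr1, Fgfr2, Fgfr3 and Fgfr4 in the summed receptor TPM, 1 bar per library in replicate order; right, the summed TPM of each library on a log axis. Fgfr2 fills 75.8% to 94.6% of each XX bar and 47.4% to 69.9% of each XY bar, and every XX point lies above the XY points of its stage.

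Of the feedback genes, Spry4 was higher in XY cells at all 4 stages. It encodes a Sprouty protein that restrains the RAS and ERK cascade. Spry4 was at 15.6, 18.2 and 11.7 CPM in XY libraries at E11.5, 61.5, 63.9 and 65.1 CPM at E12.5, then 57.6, 53.6 and 54.9 CPM at E13.5, and 44.5, 41.9 and 43.7 CPM at E15.5. In XX libraries it was at 5.29, 2.2 and 5.57 CPM at E11.5, 2.21, 2.77 and 2.07 CPM at E12.5, then 2.67, 2.74 and 3.85 CPM at E13.5, and 1.65, 2.13 and 2.36 CPM at E15.5. Every XY library lay above every XX library of any stage. The log2 XX minus XY difference was -1.82 at E11.5 and then -4.75, -4.18 and -4.37 at the later stages. In XY cells Spry4 rose 4.18-fold from E11.5 to E12.5 (log2 2.06, SE 0.21, adjusted p 4.19e-08 in edgeR) over the step in which Fgf9 fell by 0.57 on the log2 scale, and it stood at 1.51 above its E11.5 level at E15.5. Without XY E11.5 replicate 3 the rise of Spry4 from E11.5 to E12.5 was 1.83 and the Fgf9 step -0.79 on the log2 scale. In XX cells Spry4 fell by 1.04 on the log2 scale from E11.5 to E15.5 (adjusted p 0.00218 in edgeR).

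Dusp6, which encodes a phosphatase of ERK, was also higher in XY cells throughout, and the gap was widest at E15.5. XY libraries held 280, 162 and 219 CPM of Dusp6 at E11.5, 189, 401 and 455 CPM at E12.5, then 333, 231 and 259 CPM at E13.5, and 489, 501 and 468 CPM at E15.5. XX libraries held 79.5, 27.8 and 38.2 CPM at E11.5, 25.1, 29.1 and 32.9 CPM at E12.5, then 37.8, 49.3 and 66.6 CPM at E13.5, and a mean of 13.6 ± 1.86 CPM (SD, n = 3) at E15.5. The sexes did not overlap at any stage, and XX E11.5 replicate 1 was the highest of the XX libraries. The difference was -2.18 at E11.5, or -2.75 without that library, then -3.59, -2.42 and -5.15 on the log2 scale at the later stages. Over E11.5 to E15.5 Dusp6 moved in opposite directions, rising 2.21-fold in XY (log2 1.14, adjusted p 0.00463) and falling 3.55-fold in XX (-1.83, adjusted p 0.00016), a difference between the changes of -2.97 (SE 0.47, adjusted p 2.55e-05, all in edgeR). Without XX E11.5 replicate 1 the XX fall was -1.33. Most of the XX fall came from E13.5 to E15.5 (-1.91, adjusted p 0.000558 in edgeR).

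Spry2, the other Sprouty gene, did not follow Spry4. It was higher in XX at E11.5 (66.7, 51.4 and 30.1 CPM in XX; 28.9, 20.1 and 27.2 CPM in XY) but lower in XX at E12.5 (27.9, 24.9 and 19.1 CPM in XX; 43.1, 60.0 and 59.8 CPM in XY). In neither stage did the groups overlap. At E13.5 they did, with 49.9, 64.2 and 76.3 CPM in XX and 42.6, 50.4 and 47.9 CPM in XY. At E15.5 it was at 63.8, 57.8 and 102 CPM in XX and 44.5, 59.5 and 42.8 CPM in XY. The log2 XX minus XY difference was 0.96 (adjusted p 0.00478) at E11.5, -1.18 (adjusted p 0.000498) at E12.5, 0.43 (adjusted p 0.137) at E13.5 and 0.61 (adjusted p 0.037) at E15.5, all in edgeR. The E15.5 call was lost without XX E15.5 replicate 3, XY E15.5 replicate 1 or XY E15.5 replicate 3 (0.31 to 0.60), and the E11.5 call with both libraries that stood apart left out (0.76). The turn at E12.5 came from opposite steps: Spry2 fell 2.06-fold in XX (adjusted p 0.00403) and rose 2.14-fold in XY (adjusted p 0.00119 in edgeR) from E11.5 to E12.5. From E12.5 to E13.5 it rose again in XX, 2.65-fold (adjusted p 0.000402 in edgeR).

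Etv4 and Etv5, ETS factor genes that ERK signalling induces, fell in XX cells over the stages, while no change that was tested in XY cells over all libraries passed the threshold. Etv5 was at 225, 221 and 122 CPM in XY libraries at E11.5, 239, 279 and 257 CPM at E12.5, then 211, 183 and 199 CPM at E13.5, and 139, 144 and 137 CPM at E15.5. In XX libraries it was at 82.7 CPM in replicate 1, 18.3 CPM in replicate 3 and less in replicate 2 at E11.5, at 13.2 ± 2.34 CPM (mean ± SD) at E12.5, then 7.85, 4.86 and 6.42 CPM at E13.5, and 2.08, 5.13 and 2.72 CPM at E15.5. XX E11.5 replicate 1 stood far above the other XX libraries but below every XY library.

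The log2 XX minus XY difference of Etv5 was -2.32 at E11.5, or -3.63 without XX E11.5 replicate 1, and then -4.29, -4.98 and -5.4 at the later stages. Any change over the 4 stages did not pass the threshold in XY (adjusted p 0.305, edgeR F test), and the change from E11.5 to E15.5 was -0.43 (SE 0.43, adjusted p 0.4). The XY mean was nonetheless 258 CPM at E12.5 and 140 CPM at E15.5, without overlap, a change not tested by itself. The fit used a spread shared by all 8 groups, among them XX E11.5 with an SD of 39 CPM around 37.8 CPM. The lack of a call thus does not show that Etv5 was steady in XY. In XX Etv5 fell 11.4-fold from E11.5 to E15.5 (log2 -3.51, SE 0.54, adjusted p 1.69e-05 in edgeR), or by 2.26 on the log2 scale without replicate 1 at E11.5. The change differed between the sexes by -3.07 (adjusted p 0.00084 in edgeR).

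Etv4, the close relative of Etv5, was likewise higher in XY at each stage. It was at 19.2, 19.0 and 10.4 CPM in XY E11.5 and 20.8, 20.5 and 18.2 CPM in XY E15.5, and at 5.35, 1.7 and 1.62 CPM in XX E11.5 and 0.26, 0.8 and 0.445 CPM in XX E15.5. No XX library of any stage reached the lowest XY library. The XX minus XY difference widened from -2.48 at E11.5 (-3.29 without XX E11.5 replicate 1) to -3.88, -5.28 and -5.27 at the later stages; at E15.5 3 to 12 counts per XX library stood behind it. In XY the change from E11.5 to E15.5 was 0.29 (SE 0.31, adjusted p 0.443) and in XX it was -2.49 (SE 0.49, adjusted p 0.000186; -1.75 without XX E11.5 replicate 1), a difference between the changes of -2.78 (adjusted p 0.000427, all in edgeR).

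**Figure D4:**
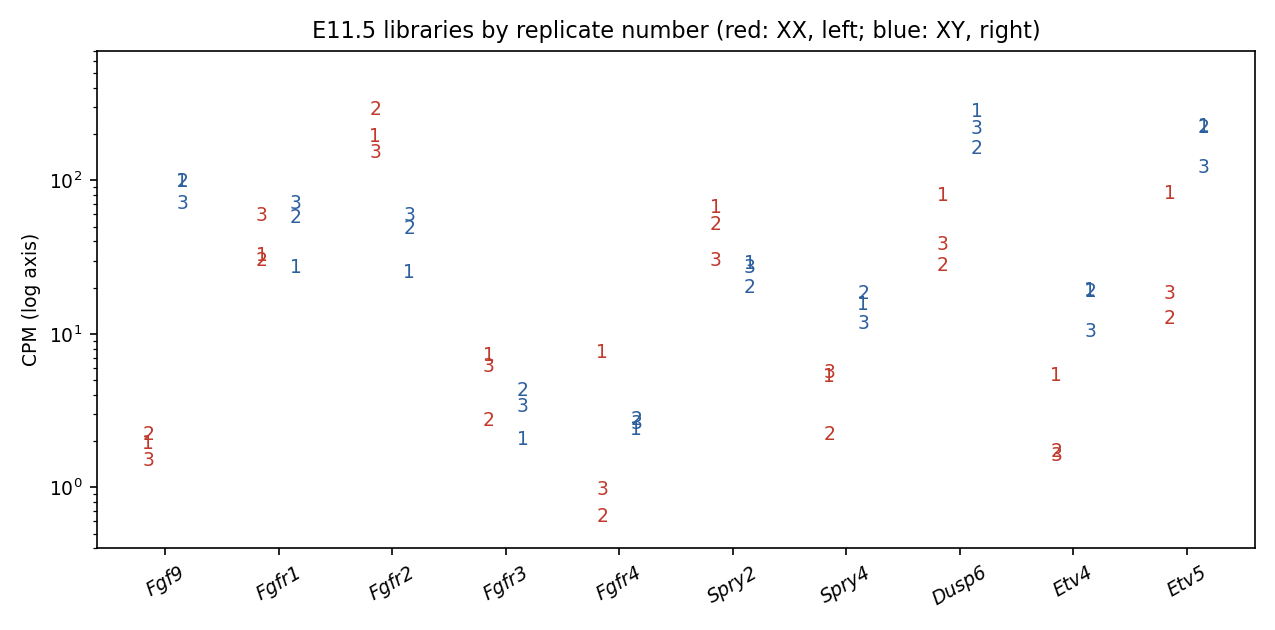
CPM (log axis) of the 10 genes in the 6 E11.5 libraries, each plotted as its replicate number (red, XX; blue, XY). XX replicate 1 is the highest XX library in Fgfr3, Fgfr4, Spry2, Dusp6, Etv4 and Etv5, and XY replicate 3 is the lowest XY library in Fgf9, Spry4, Etv4 and Etv5.

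Between the first and last stage, Fgf9 went the opposite way to Spry2, Spry4 and Dusp6 in XY cells. Over E11.5 to E15.5, 8 of the 10 genes changed in XY (against 57.7% of all genes tested). Fgf9 and the 4 receptor genes fell (5 of 10, against 27.5%), and Spry2, Spry4 and Dusp6 rose (3 of 10, against 30.2%). From E12.5 on, Spry4 and Etv5 also went down in XY without overlap between successive stages, though no step passed the threshold. XY libraries held 61.5 to 65.1 CPM of Spry4 at E12.5 and 41.9 to 44.5 CPM at E15.5. They held 239 to 279 and 137 to 144 CPM of Etv5. Dusp6 had its highest XY mean, 486 CPM, at E15.5. In XX 8 changed (against 59.4%), of which 7 fell (Fgfr1, Fgfr3, Fgfr4, Spry4, Dusp6, Etv4 and Etv5, against 31.1%) and Spry2 alone rose (against 28.3%; log2 0.6, adjusted p 0.048 in edgeR). The Spry2 rise in XX was lost without XX E11.5 replicate 2, XX E11.5 replicate 3 or XX E15.5 replicate 3 (0.28 to 0.56). By the test of any change over the 4 stages, 10 of 10 changed in XX (against 74%) and 8 in XY (against 70.3%).

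Step by step, XY cells changed most between E11.5 and E12.5. There 6 of 10 genes passed (against 51.9% of all genes tested), with Fgf9, Fgfr1, Fgfr2 and Fgfr3 lower at E12.5 (against 24.8%) and Spry2 and Spry4 higher (against 27.1%). From E12.5 to E13.5 Fgf9 alone passed in XY (1 of 10, against 16.6%, or 8.62% for genes that fell), and from E13.5 to E15.5 Fgf9 and Fgfr1 fell (2 of 10, against 21.3%, or 9.79% for genes that fell). The latter Fgfr1 step (-1.03) was lost without any 1 of 5 libraries, XY E13.5 replicates 2 and 3 and the 3 XY E15.5 libraries (-1.15 to -0.84).

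In XX, 5 genes passed from E11.5 to E12.5 (against 34%), with Fgfr2 higher (against 16.7%) and Fgf9, Spry2, Spry4 and Etv5 lower (against 17.3%). That count rests on single libraries: it was 2 without XX E11.5 replicate 1, 3 without XX E12.5 replicate 3 and 8 without XX E11.5 replicate 2. The Fgfr2 rise (0.82) was lost without replicate 1 or 3 of XX E11.5 or replicate 2 or 3 of XX E12.5 (0.63 to 0.76). The Etv5 fall (-1.52) was lost without XX E11.5 replicate 1 (-0.21) or XX E12.5 replicate 3 (-1.43), and the Spry4 fall (-0.87) without replicate 1 (-0.68) or 3 (-0.65) of XX E11.5. The falls of Fgf9 and Spry2 passed without each single library. From E12.5 to E13.5, 6 passed in XX (against 31.7%), with Fgf9 and Spry2 higher (against 14.2%) and Fgfr1, Fgfr2, Fgfr3 and Etv4 lower (against 17.4%), and 3 without XX E12.5 replicate 2. Of these, Fgfr1 was lost without that library (-0.88), Fgfr3 without it (-1.22) or XX E13.5 replicate 2 (-1.39), and Etv4 without replicate 1 or 2 of XX E12.5 or replicate 2 or 3 of XX E13.5 (-1.54 to -1.41). From E13.5 to E15.5, Dusp6 alone passed and fell (1 of 10, against 25.6%, or 12.8% for genes that fell).

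**Figure D5:**
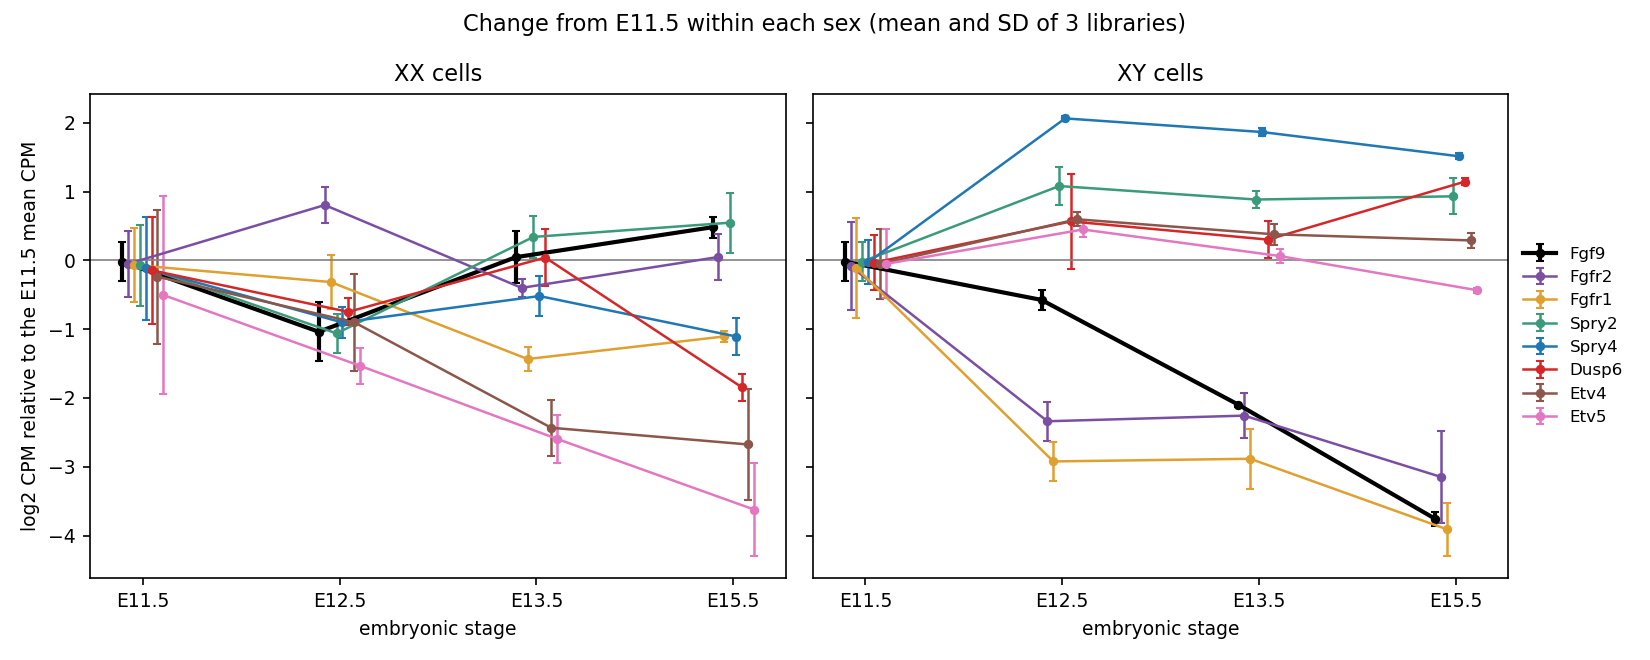
Change of 8 of the genes from E11.5 within each sex, as log2 of CPM relative to the E11.5 mean (points, mean; bars, SD of 3 libraries). In XY cells Fgf9 and Fgfr1 end lowest (log2 change -3.75 and -3.86 in edgeR) while Spry4, Spry2 and Dusp6 end above their E11.5 mean, and in XX cells Dusp6, Etv4 and Etv5 end lowest.

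A test of sex and stage together found that the sex difference changed over the stages for 9 of 10 genes (against 70.1% of all genes tested), all but Fgfr4 (adjusted p 0.828 in edgeR). By the test of the change from E11.5 to E15.5, 7 genes differed between the sexes (against 52.8%), 3 with the change higher in XX (against 25.8%) and 4 with it lower (against 27%). Step by step, 8 genes differed from E11.5 to E12.5 (against 40.1%), with Fgfr1, Fgfr2 and Fgfr3 higher in the XX step and Spry2, Spry4, Dusp6, Etv4 and Etv5 lower. From E12.5 to E13.5, 4 differed (against 25.2%), Fgf9 and Spry2 higher and Fgfr1 and Fgfr2 lower. From E13.5 to E15.5, 4 differed (against 25.8%), Fgf9, Fgfr1 and Fgfr2 higher and Dusp6 lower. From E11.5 to E15.5 the XX minus XY difference of Fgf9 shrank by 4.22 (SE 0.26, adjusted p 5.41e-11 in edgeR), whereas those of Spry4, Dusp6, Etv4 and Etv5 grew further toward XY, by -2.55, -2.97, -2.78 and -3.07. Without XX E11.5 replicate 1 these were -2.38, -2.42, -1.995 and -1.78, each still past the threshold. For Fgfr1 and Fgfr2 the difference grew toward XX, by 2.76 and 3.08, and for Fgfr3 and Spry2 the change from first to last stage did not pass (0.77 with adjusted p 0.384, and -0.35 with adjusted p 0.434).

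Across the 8 group means of log2(CPM + 1), Etv4 and Etv5 were the most alike of the 10 genes (Pearson r 0.987), and Fgfr2 and Spry4 ran most opposite (r -0.977). The points share the sex difference of the groups, and genes chosen by likeness follow from the data, so these values are descriptions. Among 11167 genes with at least 10 CPM in a group, the profiles most like Fgf9 were those of Stx7 (r 0.9918), Ppargc1a (r 0.9888) and Ccl25 (r 0.984). Ppargc1a, which encodes a coactivator of mitochondrial genes, was at 49.8, 27.2, 14.7 and 5.55 CPM in XY and 1.48, 1.05, 1.63 and 4.15 CPM in XX from E11.5 to E15.5. Its level thus fell in XY over the stages in which that of Fgf9 fell. For Spry4 the nearest were Jsrp1, Dhh and Mapk4 (r 0.9982, 0.998 and 0.9973), where Dhh encodes the hedgehog ligand of Sertoli cells and had a mean in XY of 88.3 CPM at E11.5 against 1500 CPM at E12.5. For Etv4 they were Synj2, Cbln4 and Rhpn1 (r 0.9965, 0.9956 and 0.9955) and for Etv5 Ddah1, Pdlim1 and Tox2 (r 0.9963, 0.9958 and 0.9945). For Dusp6 they were Bcl10, Amotl2 and Trib1 (r 0.9934, 0.9872 and 0.9832), and for Fgfr2 Neu3, Abca4 and Srxn1 (r 0.992, 0.9916 and 0.9913). For Fgfr1 they were Pard3, Pcdh11x and Selenbp1 (r 0.9953, 0.9801 and 0.9791), and for Fgfr3 Cntnap5a, Hif3a and Sprr2d (r 0.9921, 0.992 and 0.986). For Fgfr4 they were Grb10, Glipr2 and Pnliprp2 (r 0.9914, 0.9782 and 0.9762), and for Spry2 Timm17a, Rer1 and Tmed10 (r 0.975, 0.9736 and 0.973).

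The other genes of the pathway were read in 4 lists, and their counts stand against 42%, 62.1%, 66.1% and 69.4% of all genes tested that differed between the sexes from E11.5 to E15.5. Of 21 other FGF ligand genes, 13 were tested, and 8, 9, 9 and 5 differed over the 4 stages, a share below that of all genes at E15.5. At E12.5, 6 of the 13 were higher in XX (against 30.5% of all genes tested) and 3 in XY (against 31.5%). Fgf13, which encodes an intracellular FGF homologue that is not secreted, was the only one with at least 10 CPM in a group: at E11.5 its mean was 3.29 ± 1.14 CPM in XX against 9.82 ± 1.39 CPM in XY, and 2.95 ± 0.649 and 139 ± 4.67 CPM at E13.5. Its log2 XX minus XY difference was -1.6, -5.01, -5.55 and -4.01 over the 4 stages.

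Of 9 receptor partners, 7 were tested, and 2, 5, 5 and 5 differed, which from E12.5 on is near the share of all genes. Fgfrl1, a receptor-like protein that lacks the kinase, was higher in XY at all 4 stages (log2 -0.96, -2.11, -2.25 and -1.68), whereas Fgfr2 was higher in XX at all 4. Flrt3, which encodes a membrane protein that binds FGF receptors, was higher in XX from E12.5 on, at 49.7 ± 11.8 CPM in XX against 10.6 ± 2.27 CPM in XY at E12.5 (log2 2.22, SE 0.36, adjusted p 1.86e-05 in edgeR). Flrt2 was also higher in XX from E12.5 on, by 1.93, 0.92 and 0.89 on the log2 scale.

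Of 21 signal relay genes, all 21 were tested, and 10, 14, 14 and 14 differed, near the share of all genes at each stage. At E12.5, 12 of the 21 were higher in XY (against 31.5% of all genes tested) and 2 in XX (against 30.5%). Gab1, Map2k1 and Plcg1 were higher in XY at all 4 stages, and Grb2 was higher in XX at all 4. Map2k1, which encodes the ERK kinase MEK1, was at 70.5 ± 6.74 CPM in XX against 285 ± 3.19 CPM in XY at E12.5 (log2 -2.02, SE 0.09, adjusted p 1.44e-13 in edgeR). Plcg1, a phospholipase that FGF receptors activate, differed by -0.48 and -0.6 at the first stages and by -2.03 and -1.75 at the later ones.

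Of 16 other feedback and target genes, 15 were tested, and 6, 10, 7 and 11 differed, near the share of all genes but for E13.5, where it was lower. At E12.5 all 10 were higher in XY, which is 10 of the 15 tested (against 31.5% of all genes tested). At E15.5, 10 of the 15 were higher in XY (against 34.4%) and 1 in XX (against 34.9%). Dusp4, Etv1 and Il17rd were higher in XY at all 4 stages (Il17rd was chosen after its values were seen). Etv1, the other ETS factor gene of the Etv4 and Etv5 group, was at 7.01 ± 2.09 CPM in XX against 46.7 ± 4.5 CPM in XY at E11.5 and at 17.2 ± 2.77 and 36.8 ± 2.29 CPM at E15.5. Its difference thus narrowed from -2.75 to -1.1, while those of Etv4 and Etv5 widened. Dusp4, an ERK phosphatase gene, was at 1.86 ± 0.609 CPM in XX against 37.8 ± 23.1 CPM in XY at E12.5 (log2 -4.35, SE 0.56, adjusted p 1.16e-06 in edgeR), with 11.3, 50.0 and 52.3 CPM in the XY libraries. Dusp6 was likewise lowest in XY E12.5 replicate 1. Cic, which encodes the repressor whose octamer was searched above, was higher in XX at E11.5 (log2 0.71) and higher in XY at E12.5 (log2 -0.69), E13.5 (-2.21) and E15.5 (-2.1). The immediate early gene Egr1 differed at E12.5 (-1.48) and E15.5 (-2.13) and not at E11.5 (-0.59) or E13.5 (-0.7), and Fos was higher in XX at E13.5 (1.19, adjusted p 0.0293 in edgeR).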

How the data were processed

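Polyadenylated RNA of sorted cells was made into libraries with a low-input kit that amplifies cDNA, and no molecular identifiers are described, per the labels. The authors deposited estimated counts and TPM per gene symbol; the build is mm10, per the submitters' processing notes, and the aligner, counter and use of strand are not given in the sources used here. Of the deposited estimated counts, 17.5% were not whole, and all were rounded before testing. The deposited TPM were used for levels between genes and for markers. Total counts per library were 11275251 to 37256881, and a count of 3 corresponded to 0.0774 to 0.26 CPM. Such floors cover counting error only.

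The test was that of edgeR 4.0.16 (R 4.3.3): genes kept by filterByExpr, TMM scaling, a robust quasi-likelihood fit with 1 mean for each of 8 groups, Benjamini-Hochberg adjustment over all 16190 genes tested, and calls at an adjusted p under 0.05. The standard error is the log2 change divided by the square root of F. The procedure was tested on simulated data. All 10 genes of the set were named. From each pathway list, the genes named at a stage were, for each direction, the 3 called genes that differed most and whose higher group reached a mean of 10 CPM, and other genes are said to be chosen after their values were seen. For each of the 10 genes, the 3 genes with the highest Pearson r over group means were named. The genes and lists were chosen with earlier results of these data known. Gene models are those of GENCODE M21 (GRCm38), and promoters those of RefSeq. Spry3 and the receptors' proteins are not analysed here. The values of 1 gene of the signal relay list are not reported here.

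The alternatives were DESeq2 size factors, no filter, a minimum of 10 counts per library, a block for the replicate number, the DESeq2 1.42.0 test, limma-trend 3.58.1 on log2(TPM + 1) and log2(TPM + 0.1) for genes that reached a TPM of 1 in 3 libraries and on all genes above 0, an absolute log2 change of at least 1 in addition, fits of only the libraries compared, and fits without each library in turn. The fit without both E11.5 libraries that stood apart was chosen after seeing the data.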

Additional observations from a re-analysis of the deposited data

Results flagged for a closer look

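The change over a step between stages differed between the sexes for 16 combinations of gene and step, by the test of XX step minus XY step in edgeR with adjustment over all genes tested. From E11.5 to E12.5, 8 of the 10 genes were among them, against 40.1% of all genes tested. The receptor genes rose in XX relative to XY, with differences of 3.14 for Fgfr2 (adjusted p 9.54e-06), 2.62 for Fgfr1 (7.36e-05) and 2.66 for Fgfr3 (0.00229). The feedback genes went the other way, with -2.93 for Spry4 (3.91e-07), -2.14 for Spry2 (8.81e-05), -1.97 for Etv5 (0.0166), -1.4 for Dusp6 (0.0191) and -1.39 for Etv4 (0.0302). The last 3 were lost without XX E11.5 replicate 1, at -0.59, -0.77 and -0.52 in that order. Etv5 was also lost without XY E11.5 replicate 3 (-1.69). Dusp6 was also lost without XX E12.5 replicate 1, XY E11.5 replicate 2 or replicate 2 or 3 of XY E12.5 (-1.24 to -1.09), and Etv4 without XX E12.5 replicate 3, XY E11.5 replicate 3 or replicate 2 or 3 of XY E12.5 (-1.33 to -1.06). The differences of Fgfr1, Fgfr2, Fgfr3, Spry2 and Spry4 passed without each single library and without both E11.5 libraries that stood apart.

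From E12.5 to E13.5, 4 genes differed, against 25.2% of all genes. These were Fgf9 with 2.6 (adjusted p 2.41e-06 in edgeR) and Spry2 with 1.61 (0.00256), both higher in the XX step, and Fgfr2 with -1.31 (0.0337) and Fgfr1 with -1.23 (0.0497). From E13.5 to E15.5, 4 genes differed, against 25.8%, namely Fgf9 with 2.06 (1.23e-05), Dusp6 with -2.73 (0.000299), Fgfr1 with 1.37 (0.036) and Fgfr2 with 1.25 (0.0472). The 4 differences of Fgfr1 and Fgfr2 in these later steps were near the threshold. For Fgfr1 the call from E12.5 to E13.5 was lost without any 1 of 9 libraries, the 3 of XX E13.5, replicates 2 and 3 of XX E12.5 and XY E13.5, and replicates 1 and 2 of XY E12.5 (-1.32 to -0.97), and for Fgfr2 without any 1 of 8, the same libraries but XX E13.5 replicate 1 (-1.39 to -1.16). From E13.5 to E15.5 the Fgfr1 call was lost without replicate 1 or 2 of XX E13.5, any of XX E15.5, replicate 2 or 3 of XY E13.5 or replicate 1 or 3 of XY E15.5 (1.14 to 1.45). The Fgfr2 call of that step was lost without any of XX E13.5 or replicate 2 or 3 of XX E15.5, XY E13.5 or XY E15.5 (1.03 to 1.32), and with the replicate number as a block (1.165, adjusted p 0.0649 in edgeR). The differences of Fgf9, Spry2 and Dusp6 in these steps passed without each single library.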

How the results depend on the processing

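Of the 40 XX minus XY differences of the 10 genes over the 4 stages, 33 were called. Of these, 27 stayed called under every alternative that tested the gene. Etv4, Fgfr3 and Fgfr4 could not be tested with a minimum of 10 counts per library. Etv4 and Fgfr4 held 3 counts in XX E15.5 replicate 1, and Fgfr3 held 2 in XY E13.5 replicate 1. The 6 lost under some were Etv5 at E11.5, Fgfr1 at E13.5, Fgfr3 at E13.5 and E15.5, and Spry2 at E11.5 and E15.5, and none of the 33 changed sign. Differences that were not called changed sign as follows: Fgfr1 at E11.5 to 0.0918 without both E11.5 libraries that stood apart; Fgfr4 at E11.5 to -0.0738 on log2(TPM + 1), with or without the filter, -0.36 on log2(TPM + 0.1), -1.71 without XX E11.5 replicate 1 and -1.68 without both libraries; Fgfr4 at E12.5 to 0.0883 without XX E12.5 replicate 3. Without single libraries Fgfr4 ran from -1.71 to 0.733 at E11.5 and from -1.04 to 0.0883 at E12.5. Counts for single steps were the least stable. The 5 genes of XX from E11.5 to E12.5 became 3 on each TPM setting, 3 with an absolute log2 change of at least 1, 3 without both libraries, 2 to 8 without single libraries and 0 with only the libraries compared by edgeR (4 at an unadjusted p under 0.05; DESeq2 on all libraries gave 6). The 6 of XX from E12.5 to E13.5 became 3 to 7 without single libraries. The 1 of XX from E13.5 to E15.5 became 2 on log2(TPM + 0.1) and 4 with only the libraries compared, and the 1 of XY from E12.5 to E13.5 became 3 with the latter. The 2 of XY from E13.5 to E15.5 became 1 with no filter, 1 on each TPM setting, 4 with DESeq2, 6 with only the libraries compared and 1 to 2 without single libraries. The 26, 38 and 35 other pathway genes at E11.5, E12.5 and E15.5 became 12, 22 and 22 when the log2 difference also had to reach 1 in size, and the 26 became 10 with only the libraries compared. The cause was not tested. On log2(TPM + 1) the median of all genes moved to 0.143 for XX minus XY at E12.5, where the share of calls higher in XX was 62.5% in place of 49.2%, and at E11.5 that share was 39.9% in place of 50.9%.

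No clear pairing of libraries by replicate number was seen, but with 3 libraries a group the check cannot exclude one. The mean correlation of deviations from group means was 0.00423 over 84 pairs with the same number (-0.193 to 0.351). Over 168 pairs with different numbers it was -0.00238 (-0.34 to 0.272), and 11 of 24 libraries correlated best with their own number. With the replicate number as a block, the Spry2 difference at E15.5 (0.61, adjusted p 0.0502 in edgeR) and the Spry2 change in XX from E11.5 to E15.5 (0.592, adjusted p 0.0665) were lost, the count at E15.5 was 8 in place of 9, and the counts of the 10 genes for the other stages and single steps were as without the block. Depth limits Fgfr3, Fgfr4 and XX Etv4 at E15.5, where libraries held 3 to 18.1 counts.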

Other observations

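The values of 3 other FGF genes are given here, chosen after they were seen. Fgf18, which encodes a ligand known from bone and lung, was at 1.87, 1.42 and 1.75 CPM in XX E11.5 and 0.408, 0.336 and 0.261 CPM in XY E11.5, and at 0.699, 1.0 and 0.483 CPM in XX E12.5 and 9.01, 5.18 and 5.62 CPM in XY E12.5. The sexes did not overlap at either stage and their order turned, from a log2 XX minus XY difference of 2.31 (adjusted p 1.4e-06) to -3.17 (adjusted p 1.41e-09, both in edgeR). In XY cells Fgf18 rose by 4.28 on the log2 scale over the step in which Fgf9 fell by 0.57. Fgf20, a close relative of Fgf9, was at 0.462, 1.55 and 1.04 CPM in XY E11.5 and at 0, 0 and 0.0914 CPM in XY E12.5, where no library held more than 2 counts. Fgf11, an intracellular FGF homologue like Fgf13, was higher in XX at all 4 stages, by 0.77, 1.9, 1.21 and 0.92.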
